A study of Rattus norvegicus with 16 samples.

Results

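The 9 genes described here encode the proteins that import cystine for glutathione, assemble glutathione, reduce its oxidised form, spend it on peroxides and cleave it outside the cell: Slc7a11, Gclc, Gclm, Gss, Gsr, Gpx1, Gpx2, Gpx3 and Ggt1. They were chosen by name from this pathway. They are 9 of the 15284 genes that have a named probe on the array, with 15 of the 27460 named probes. RNA came from the outer medulla of kidneys of male Crl:CD Sprague-Dawley rats that were 5 weeks old when dosing began. ANP animals received 2-amino-4-nitrophenol, a nitroaromatic phenol, in corn oil by gavage at 750 mg/kg once a day, and vehicle control (VC) animals received corn oil alone. Tissue was taken after 1, 7, 14 and 28 days of dosing, so animals of a later day were also older. At days 1 and 7 each of the ANP and VC groups had 1 array of RNA mixed from 3 animals, and at days 14 and 28 each had 3 arrays of 1 animal each, which makes 16 arrays in all. Dissection defined the sample, so it holds all the cell types of this zone.

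Glutathione is a tripeptide of glutamate, cysteine and glycine. The cystine/glutamate exchanger subunit Slc7a11 (xCT) brings in cystine, glutamate-cysteine ligase (catalytic subunit Gclc, modifier subunit Gclm) makes the first bond at the rate-limiting step, and glutathione synthetase (Gss) adds glycine. Glutathione peroxidases (Gpx1, Gpx2, Gpx3) oxidise glutathione while they reduce peroxides, and glutathione reductase (Gsr) restores it with NADPH. Gamma-glutamyltransferase 1 (Ggt1) sits on the brush border of the proximal tubule, where it opens the breakdown of filtered glutathione, and the straight (S3) segment of that tubule lies in the outer medulla. Several of these genes, Gclc, Gclm, Slc7a11, Gsr and Gpx2 among them, are known targets of the transcription factor NRF2, which binds antioxidant response elements, and Slc7a11 is also a target of ATF4.

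Each value below is a relative signal, the spot intensity divided by the 75th percentile of its array, and compares arrays for one probe but not one gene with another. Between 64.8% and 69.6% of probes were well above background on an array, and replicate arrays correlated at r of 0.987 to 0.993 across genes. Arrays sat on 4 slides, scanned one slide at a time. The 3 VC arrays of day 14 shared a slide with ANP replicate 1 of that day, ANP replicates 2 and 3 of day 14 shared one with the 3 VC arrays of day 28, the 3 ANP arrays of day 28 had their own, and the 4 pools had their own. Slide and treatment therefore cannot be told apart at day 28. Between the VC animals of days 14 and 28, slide likewise cannot be told apart from day and age. All 8 markers listed for the S3 segment were measured, with a mean log2 level from 2.24 to 3.42 over the arrays. The mean of this list was lower in VC animals of day 28 (2.71) than of day 14 (3.14), with 2 of the 8 called lower and 0 higher. In ANP animals of day 28 it was 3.09, with 1 of the 8 called higher than in VC animals and 0 lower. There 5 of the 8 had a log2 ratio above 0, with a median of 0.14. Slc22a13 (1.92) and Slc22a7 (1.68) were the highest and weigh most in the mean. All 10 markers of the convoluted tubule of the cortex and all 5 glomerular markers were measured as well, and the means of both lists were higher in VC animals of day 28 than of day 14 (mean log2 level 5.75 against 4.48 for the cortical list, and 0.75 against -0.57 for the glomerular list), with 6 of the 10 cortical and 4 of the 5 glomerular markers called higher and 0 of either lower. The mean of the 7 measured thick ascending limb markers was 3.14 in VC animals of day 28 and 3.58 at day 14. Of these, 2 were called lower and 0 higher. In ANP animals of day 28 the mean was 3.45, with 0 called. The 8 collecting duct markers had means of 3.14 and 2.90 in these VC groups, with 2 called higher and 0 lower. Their mean was 2.73 in ANP animals of day 28, with 2 called lower than in VC animals and 0 higher. These lists belong beside each result below that involves the day 28 vehicle arrays, and their part in those results was not tested. In such bulk samples, fewer cells of a type and less RNA per cell cannot be told apart.

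Promoters are shown for Gclm, the gene with the largest tested difference between ANP and VC animals among the 9, and for Gpx2, because these 2 of the 8 promoter windows matched (all genes but Gsr) hold the core of the antioxidant response element. The core was searched as TGACNNNGC on both strands in the RefSeq windows of the GRCr8 assembly, from 250 bases before to 50 bases after each gene start. It was present in 4038 of all 33469 windows, which is 12.1%. Counted from the gene start, the match began at position -172 in Gclm and at -13 in Gpx2, each on the reverse strand. The 250 bases upstream of the start are printed from 5′ to 3′ on the strand of the gene, with the matched letters in capitals, for Gclm at chr2:213031885-213032134 on the plus strand and for Gpx2 at chr6:101230034-101230283 on the minus strand.
Gclm: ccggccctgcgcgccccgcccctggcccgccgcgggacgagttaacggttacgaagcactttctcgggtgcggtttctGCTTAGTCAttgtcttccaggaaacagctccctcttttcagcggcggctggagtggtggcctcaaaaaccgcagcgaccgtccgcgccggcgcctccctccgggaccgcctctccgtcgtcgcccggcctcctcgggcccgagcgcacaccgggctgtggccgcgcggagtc
Gpx2: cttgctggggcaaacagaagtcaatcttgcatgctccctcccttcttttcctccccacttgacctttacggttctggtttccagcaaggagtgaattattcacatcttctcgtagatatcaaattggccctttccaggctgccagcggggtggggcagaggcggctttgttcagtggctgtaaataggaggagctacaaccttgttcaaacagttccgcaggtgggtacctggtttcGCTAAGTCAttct
The core of the CARE element, which CCAAT enhancer binding proteins and ATF4 bind, was searched as TGATGNAA on both strands and was found in 3.98% of the windows and in 0 of the 8. A match of these letters is a description of the window and not a measured binding site.

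Among the 9 genes Slc7a11 had the largest ratio, in the day 1 pools, and Gclm had the largest at day 28. At day 1, 2 of the 9 genes differed by 2-fold or more between the pools, Slc7a11 and Gpx2, with the ANP pool above the VC pool for each of them. Of 12413 genes compared in these pools, 9.79% differed that much, 4.83% upward and 4.96% downward in the ANP pool. At day 7 it was 3 of the 9, Slc7a11, Gpx2 and Gsr, again with the ANP pool above the VC pool, beside 4.65% of 12122 genes, 2.12% upward and 2.53% downward. At days 14 and 28, 8 of the 9 genes passed the filter on dim probes, which Slc7a11 did not, and were tested with limma over 11849 genes (Benjamini-Hochberg adjusted p below 0.05). At day 14 limma called 0 of the 8, with 1 at an unadjusted p below 0.05, and the share called of all genes was 0.481% (0.363% higher and 0.118% lower). At day 28 it called 2 higher, Gclm and Gsr, and 0 lower, where it called 7.11% of all genes, 4.47% higher and 2.63% lower. The median log2 ratio of the 8 was -0.01 at day 14 and 0.21 at day 28, beside medians of 0.01 and 0.02 over all genes tested.

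**Figure D1:**
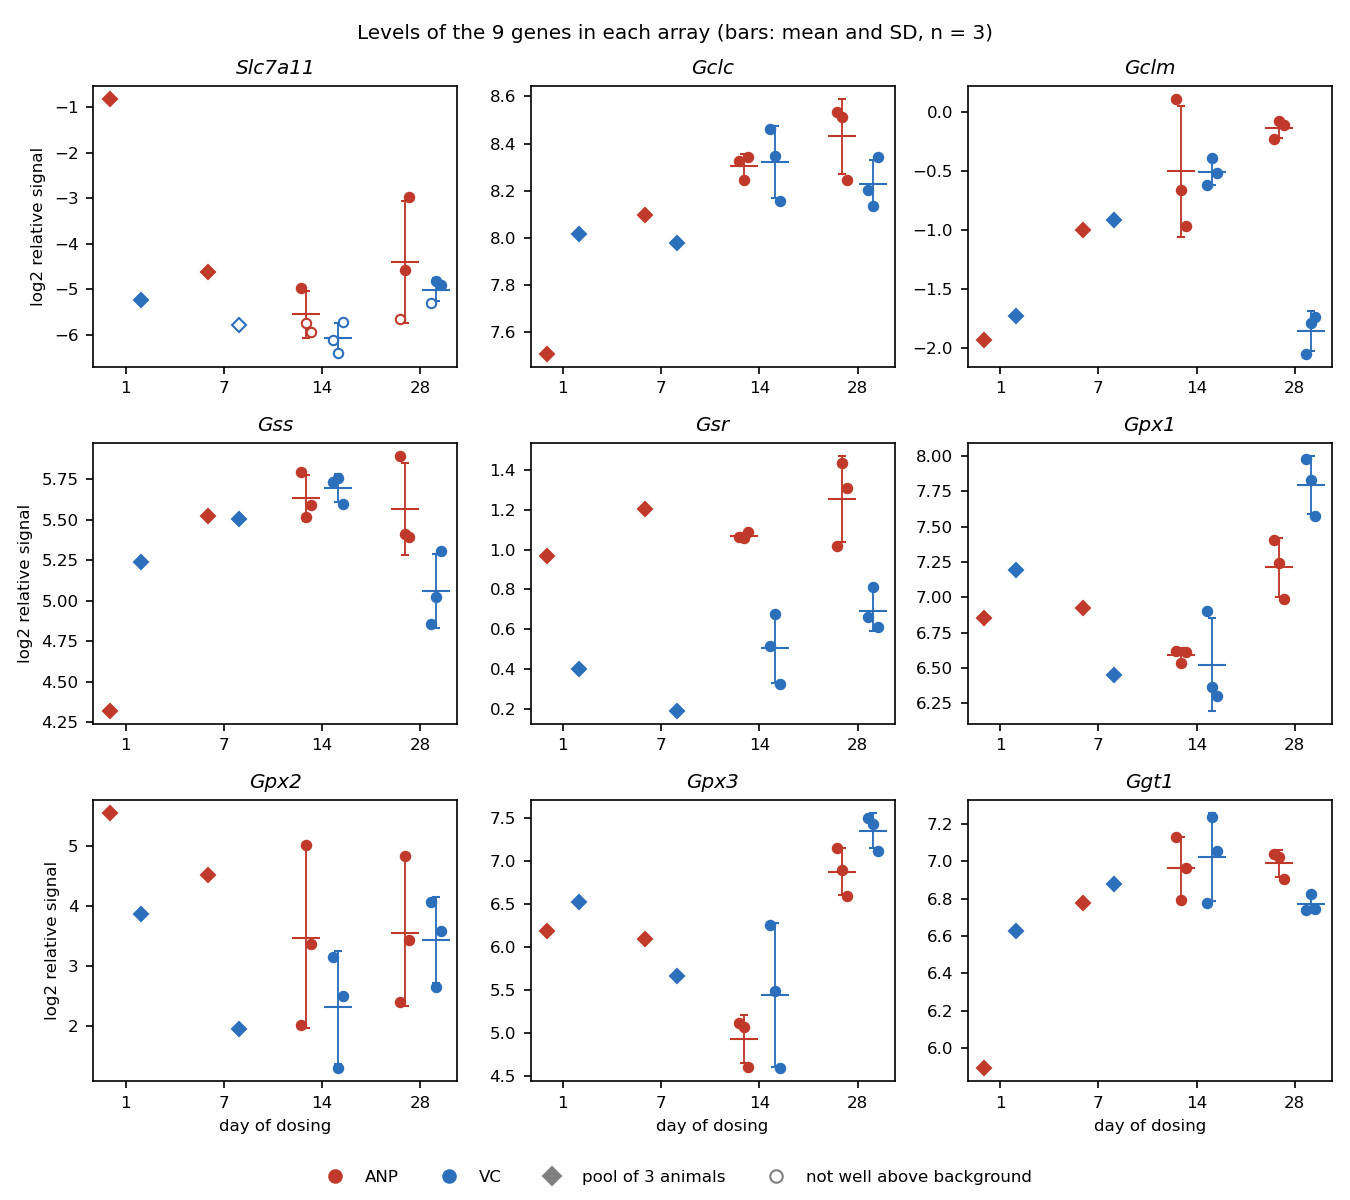
Log2 relative signal of the 9 genes in each array (vertical axis) by day of dosing (horizontal axis), with ANP in red to the left of VC in blue. Circles are single animals with mean and SD bars (n = 3), diamonds are pools of 3 animals and open symbols are arrays on which the probe was not well above background. Slc7a11 stands apart in the ANP pool of day 1, and the 3 VC arrays of Gclm at day 28 lie below all the others of days 14 and 28.

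The cystine importer Slc7a11 was high on a single array of the 16. Its relative signal was 0.567 in the ANP pool of day 1, against 0.0265 in the VC pool, a ratio of 21.4-fold (log2 ratio 4.42). At day 7 it was 0.0407 in the ANP pool, and the probe was not well above background in the VC pool (0.0181), so the ANP pool was at least 2.25-fold higher. With 1 pooled array per group neither ratio has an error. The other 2 probes of Slc7a11 were dimmer and well above background on 2 arrays each. On the day 1 pools they were well above background in ANP and not in VC, so that the ANP pool was at least 2.65-fold higher by one of them and at least 1.35-fold higher by the other.

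At day 14 the Slc7a11 probe was well above background in 1 of 3 ANP animals and in 0 of 3 VC animals. The relative signals were 0.0320, 0.0187 and 0.0163 in ANP animals, against 0.0146, 0.0118 and 0.0190 in VC animals. These groups overlap near the lowest measurable signal, so no fold is given. At day 28 the ANP animals had 0.0200, 0.0422 and 0.127, and the VC animals had 0.0254, 0.0353 and 0.0332, with 2 of 3 arrays well above background in each group. ANP replicates 2 and 3 lay above all 3 VC values and ANP replicate 1 below them. In the limma fit without a filter, the log2 ratio at day 28 was 0.62 ± 0.55 (SE, n = 3, adjusted p = 0.515). Without ANP replicate 3 the day 28 value was -0.09 (adjusted p = 0.898).

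Of the enzyme that begins glutathione synthesis, the catalytic subunit Gclc differed little and the modifier subunit Gclm differed at day 28. Gclc had a relative signal of 182 in the ANP pool of day 1 against 259 in the VC pool, and 274 against 252 at day 7. At day 14 the ANP animals had 321, 304 and 324, and the VC animals had 352, 326 and 285, so the groups overlapped. At day 28 they had 371, 365 and 304 in ANP and 295, 281 and 324 in VC, again with overlap. The log2 ratio was -0.02 ± 0.11 at day 14 (SE, n = 3, 95% interval -0.26 to 0.22, limma adjusted p = 0.968) and 0.20 ± 0.11 at day 28 (95% interval -0.03 to 0.44, adjusted p = 0.253). For this probe the intervals exclude a 2-fold difference in either direction at both days.

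The other Gclc probe gave larger differences. At day 28 it read 41.3, 33.3 and 30.0 in ANP animals, against 22.0, 20.4 and 27.3 in VC animals, with no overlap. Used in place of the brighter probe, it gave a log2 ratio of 0.58 ± 0.16 with adjusted p = 0.0512, just outside the threshold. On the pools its log2 ratio was -0.89 at day 1 and -0.19 at day 7, where the brighter probe gave -0.51 and 0.12. The 2 probes of Gclc thus disagree on the size of the day 28 difference and on the sign at day 7.

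Gclm showed nearly equal levels in both groups until day 14. At day 1 it read 0.262 in the ANP pool and 0.301 in the VC pool, and at day 7 it read 0.50 and 0.531. The ANP animals of day 14 had 1.08, 0.634 and 0.513, against 0.653, 0.761 and 0.699 in VC animals, with the VC values inside the ANP span. The log2 ratio there was 0.01 ± 0.22 (SE, n = 3, adjusted p = 0.996). On the slide that held both groups, ANP replicate 1 was 0.62 above the VC mean on the log2 scale, while ANP replicates 2 and 3, on another slide, were at -0.30 relative to it.

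At day 28 Gclm was 3.30-fold higher in ANP animals. They had relative signals of 0.854, 0.949 and 0.929, against 0.241, 0.289 and 0.300 in VC animals. Every ANP animal was above every VC animal, and both groups were tight (SD 0.0499 and 0.0315, n = 3 each). The log2 ratio was 1.72 ± 0.22 with a 95% interval of 1.23 to 2.22 and limma adjusted p = 0.00475, and it passed the threshold under all 23 alternatives that gave a value, with log2 ratios from 1.49 to 1.79. The ANP animals of day 28 averaged 0.911 ± 0.0499 (SD, n = 3) and those of day 14 averaged 0.743 ± 0.300, while the VC animals averaged 0.277 ± 0.0315 at day 28 and 0.704 ± 0.0547 at day 14. Between the vehicle groups, which were on different slides, Gclm was 2.55-fold lower at day 28 than at day 14 (log2 ratio -1.35 ± 0.22, adjusted p = 0.0067). One slide held both ANP replicates 2 and 3 of day 14, at 0.634 and 0.513, and the 3 VC arrays of day 28, at 0.241 to 0.300, with a log2 difference of -1.05 between their means (VC minus ANP). Of the 5 red cell markers listed, 4 were measured, and 3 of these (Alas2, Hbb and Ahsp) were called higher in ANP animals of day 28. Their mean log2 level ran from 1.86 to 2.88 in ANP animals of day 28, against 1.04 to 1.17 in VC animals, and its part in the day 28 results was not tested. The mean log2 level of the S3 list ran from 2.91 to 3.42 in those ANP animals and from 2.42 to 3.05 in the VC animals, with a median log2 ratio of 0.14. The part of the S3 list was not tested either.

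The difference of the effects between days 28 and 14 was 1.72 ± 0.31 for Gclm, and its adjusted p was 0.378. Limma called 0 of 11849 genes in this comparison (1098 at an unadjusted p below 0.05), and 0 of the 8 tested here, with 3 of them at an unadjusted p below 0.05 (Gclm, Gss and Gpx1). Without ANP replicate 1 of day 14, Gclm passed the threshold (2.03, adjusted p = 0.0101). That animal was the only ANP animal of day 14 on the slide of the VC arrays of that day. Without it, slide and treatment cannot be told apart at day 14 either.

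**Figure D2:**
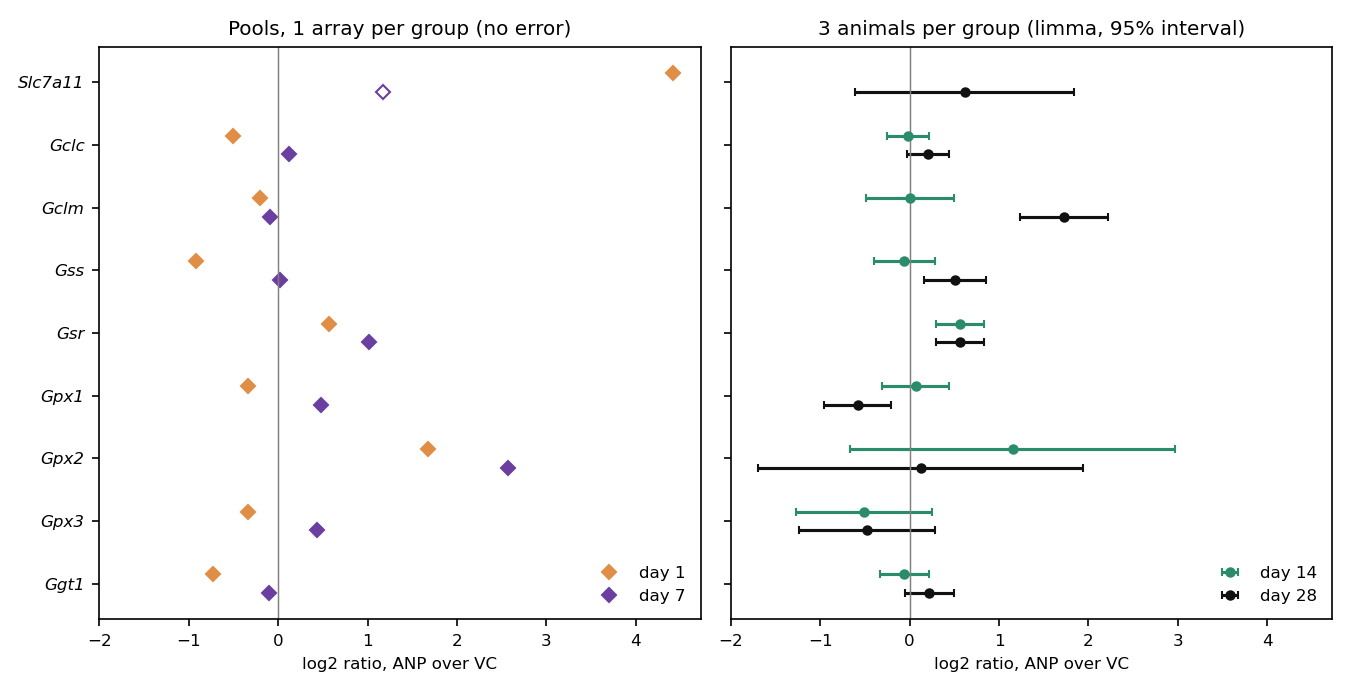
Log2 ratio of ANP over VC for the 9 genes. The left panel shows the pools of days 1 and 7 without error, and the right panel shows days 14 and 28 with 95% intervals from limma (n = 3 each, Slc7a11 at day 28 from the fit without a filter and left out at day 14). The open diamond of Slc7a11 at day 7 is a lower bound. The interval of Gclm at day 28 (1.23 to 2.22) is the one farthest from 0, and the intervals of Gsr lie above 0 at both days.

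Glutathione synthetase, Gss, completes the tripeptide. Its relative signal was 20.0 in the ANP pool of day 1 and 37.7 in the VC pool, a ratio of 1.89-fold downward (log2 ratio -0.92), and the day 7 pools were at 45.9 and 45.4. The S3 marker list was also lower in the ANP pool of day 1, by a mean log2 difference of -0.96 over its 8 genes, and its part in the result was not tested. At day 14 ANP animals had 55.5, 45.8 and 48.2, and VC animals had 53.2, 54.0 and 48.3, which overlap (log2 ratio -0.06 ± 0.16, adjusted p = 0.916). At day 28 ANP animals had 59.4, 42.4 and 42.1, against 28.9, 32.5 and 39.5 in VC animals. The groups did not overlap, but the log2 ratio of 0.51 ± 0.16 did not pass the threshold (95% interval 0.16 to 0.85, limma adjusted p = 0.076). The S3 marker list had a mean log2 difference of 0.38 at day 28 and a median of 0.14, and its part in this value was not tested. The VC animals of day 28 were also below those of day 14 for Gss (log2 ratio -0.63 ± 0.16, adjusted p = 0.0272), a call that was lost without any 1 of the VC animals of day 14, or without VC replicate 1 or 2 of day 28.

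Glutathione reductase, Gsr, was higher in ANP tissue at all 4 times. The pools of day 1 had 1.96 in ANP and 1.32 in VC, and those of day 7 had 2.30 and 1.14, ratios of 1.48-fold and 2.02-fold. At day 14 ANP animals had 2.09, 2.08 and 2.13, against 1.43, 1.60 and 1.25 in VC animals. At day 28 ANP animals had 2.03, 2.71 and 2.48, against 1.58, 1.75 and 1.53 in VC animals. No ANP animal overlapped a VC animal at either day.

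The log2 ratio of Gsr was 0.56 ± 0.12 at day 14 (SE, n = 3, limma adjusted p = 0.0845) and 0.56 ± 0.12 at day 28 (adjusted p = 0.0261), so that Gsr rose 1.48-fold at day 28 and did not pass the threshold at day 14. The effects differed between the days by 0.00 ± 0.17 (95% interval -0.38 to 0.38). On the slide that held both groups at day 14, ANP replicate 1 was 0.56 above the VC mean on the log2 scale, and replicates 2 and 3 on the other slide were 0.57 above it. The day 28 call was lost with the 2 groups of that day alone (adjusted p = 0.0701) and when VC replicate 1, 2 or 3 or ANP replicate 2 or 3 of that day was left out (adjusted p = 0.0862, 0.0597, 0.0724, 0.0835 and 0.0544), while the log2 ratio stayed between 0.47 and 0.68. VC animals of day 28 and of day 14 differed by 0.19 ± 0.12 on the log2 scale (adjusted p = 0.366), and Gsr was the one of the 2 genes called at day 28 that was not also called between the vehicle groups.

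Of the peroxidases, the cytosolic enzyme Gpx1 was called between the vehicle groups only. The ANP pools read 116 at day 1 and 122 at day 7, against 146 and 87.4 in the VC pools. ANP animals of day 14 had 98.6, 92.8 and 98.0, and VC animals had 119.7, 82.7 and 79.0, which overlap (log2 ratio 0.07 ± 0.17, adjusted p = 0.914). At day 28 ANP animals had 169, 151 and 127, against 252, 228 and 190.5 in VC animals. All 3 ANP animals were below all 3 VC animals, with a log2 ratio of -0.58 ± 0.17 that did not pass the threshold (95% interval -0.96 to -0.21, limma adjusted p = 0.0646). It passed in 6 of 24 alternatives, one of which left out VC replicate 1 of day 14 (adjusted p = 0.0276). The VC animals of day 28 were 2.41-fold above those of day 14 (log2 ratio 1.27 ± 0.17, adjusted p = 0.00329). The other Gpx1 probe gave -0.44 at day 28 (adjusted p = 0.142).

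Gpx3, the secreted peroxidase of plasma, which the proximal tubule makes, was likewise called between the vehicle groups only. It had a relative signal of 72.6 in the ANP pool and 91.9 in the VC pool at day 1, and 67.9 and 50.3 at day 7. ANP animals of day 14 had 34.5, 33.5 and 24.4, and VC animals had 76.2, 44.8 and 24.0. Those of day 28 had 141, 119 and 96.2, against VC animals with 181, 173 and 139. The groups overlapped at both days, and the log2 ratios of -0.51 ± 0.34 and -0.48 ± 0.34 did not pass the threshold (limma adjusted p = 0.579 and 0.412). VC animals of day 28 had 3.75-fold more Gpx3 signal than those of day 14 (log2 ratio 1.91 ± 0.34, adjusted p = 0.009).

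The cortical and glomerular marker lists stand beside Gpx1 and Gpx3. In ANP animals of day 28 the mean log2 level of the 10 cortical markers ran from 5.12 to 5.36, against 5.58 to 5.85 in VC animals, and at day 14 it ran from 3.92 to 4.35 in ANP and from 3.87 to 5.17 in VC animals. The 5 glomerular markers ran from -0.21 to 0.06 in ANP animals of day 28, against 0.49 to 0.91 in VC animals. At day 14 they ran from -1.65 to -1.02 in ANP and from -1.14 to -0.06 in VC animals, a mean difference of -0.82. The cortical list had a mean difference of -0.36 at day 14, and the log2 ratios of that day were 0.07 for Gpx1 and -0.51 for Gpx3. Between ANP and VC animals of day 28, 1 cortical marker was called higher (Slc22a12, log2 ratio 0.85, adjusted p = 0.030) and 1 lower (Lrp2, -0.72, adjusted p = 0.025), and 1 glomerular marker was called lower (Podxl, -0.77, adjusted p = 0.0073). Over the 16 arrays Gpx1 and Gpx3 had r = 0.92 with each other, a description over arrays that share groups and slides. The part of these cell types in the Gpx1 and Gpx3 values was not tested.

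**Figure D3:**
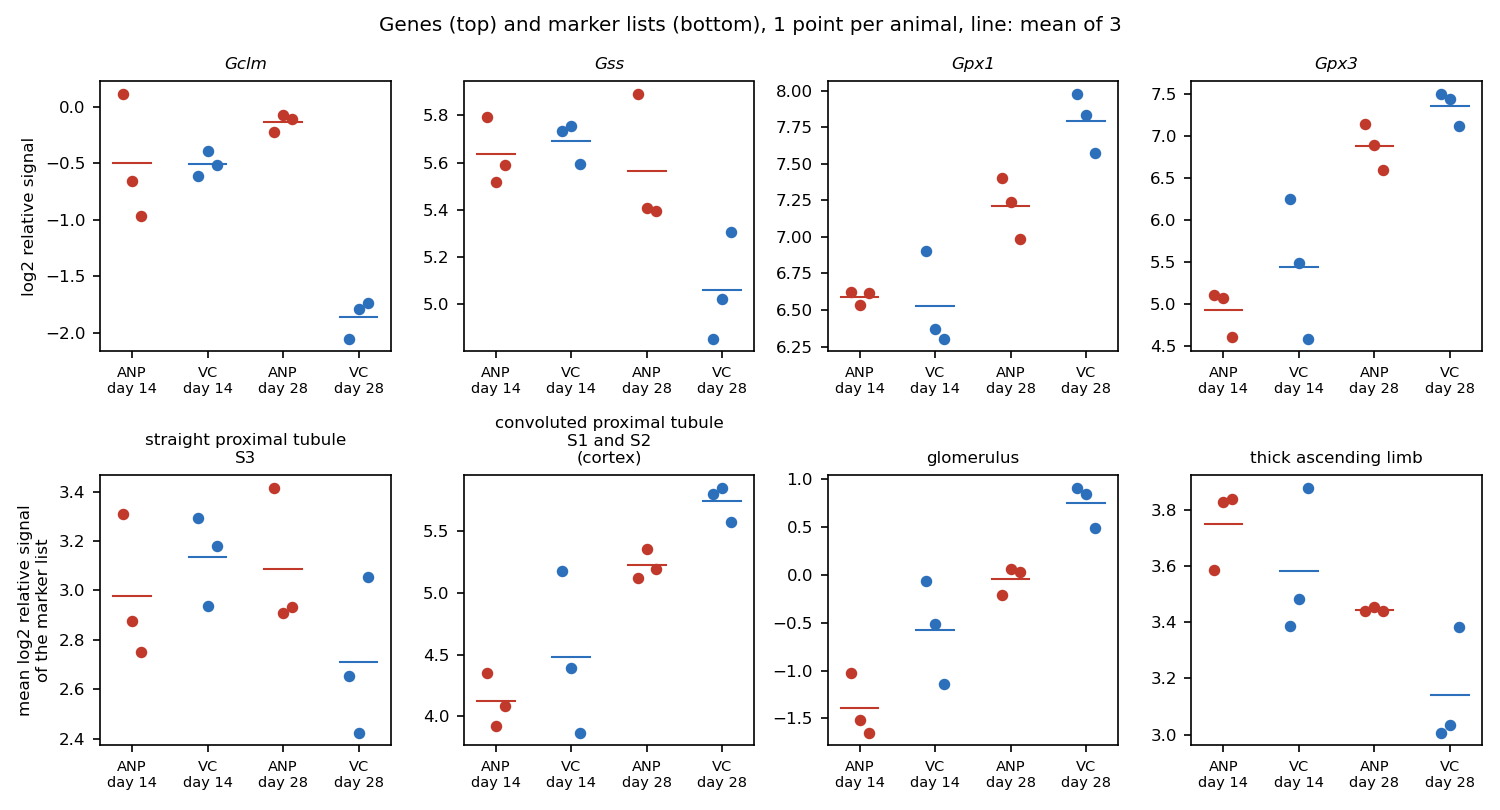
Log2 relative signal of Gclm, Gss, Gpx1 and Gpx3 (top) and mean log2 relative signal of 4 marker lists (bottom) in the animals of days 14 and 28, with 1 point per animal and a line at the mean of 3. Red is ANP and blue is VC. Gpx1, Gpx3, the cortical list and the glomerular list have their highest means in VC at day 28, where Gclm, Gss, the S3 list and the thick ascending limb list have their lowest means.

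Gpx2, a peroxidase best known from the epithelium of the gut, varied most between animals. Its relative signal was 47.0 in the ANP pool and 14.7 in the VC pool at day 1 (3.20-fold), and 22.9 and 3.87 at day 7 (5.93-fold). At day 14 ANP animals had 4.04, 32.6 and 10.3, and VC animals had 8.87, 2.45 and 5.68. On day 28 the ANP animals had 5.31, 28.7 and 10.8, and VC animals had 16.8, 6.31 and 12.1. ANP replicate 2 was the highest and ANP replicate 1 was below the VC mean at both days, so the groups overlapped.

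The log2 ratio of Gpx2 was 1.15 ± 0.82 at day 14 (SE, n = 3, 95% interval -0.67 to 2.97, limma adjusted p = 0.605) and 0.12 ± 0.82 at day 28 (-1.70 to 1.94, adjusted p = 0.945). These intervals do not exclude a 2-fold difference upward at either day. With array weights the day 28 log2 ratio was 1.07 ± 0.68 (adjusted p = 0.277). On the slide that held both groups at day 14 the one ANP animal was at -0.30 relative to the VC mean on the log2 scale, and the 2 on the other slide averaged 1.88. Without ANP replicate 2 of day 28 the value of that day was -0.52 and without VC replicate 2 it was -0.27. All 3 probes of Gpx2 gave the same order of animals within the ANP groups, and log2 ratios from 1.68 to 1.86 at day 1 and from 2.43 to 2.60 at day 7.

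**Figure D4:**
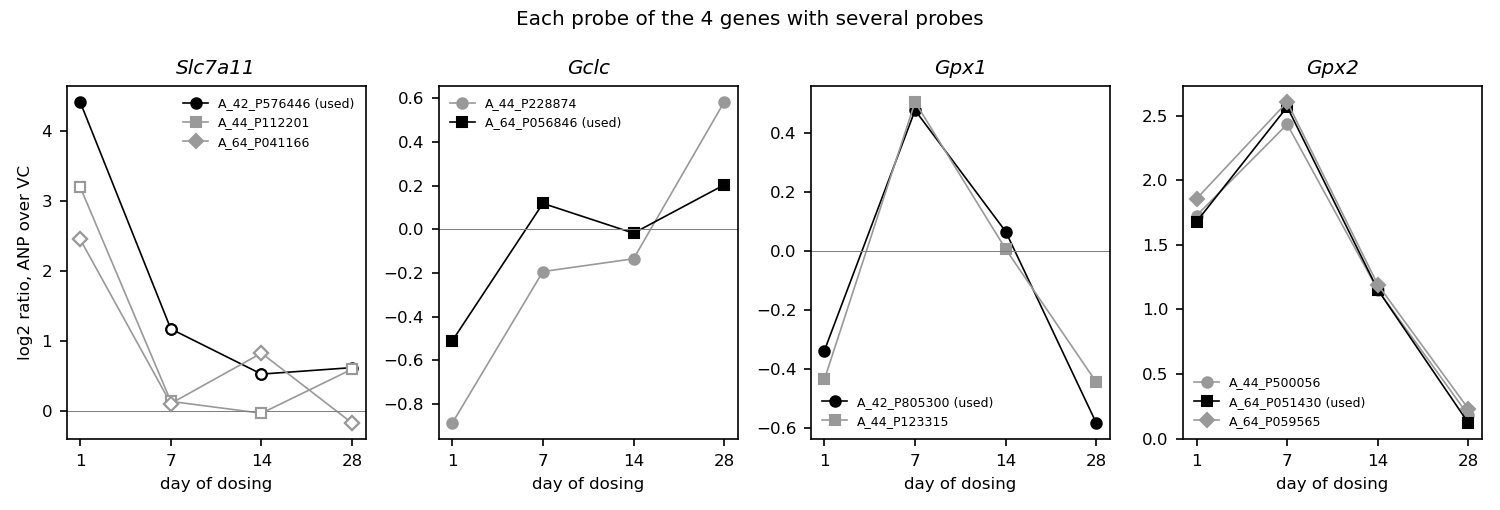
Log2 ratio of ANP over VC by day of dosing for each probe of the 4 genes that have several, with the probe used in black and the others in grey. Days 1 and 7 are ratios of pools and days 14 and 28 are differences of group means (n = 3 each). The Gpx1 and Gpx2 probes run together, and the Gclc probes part at day 28. Open symbols, all of Slc7a11, mark days on which a group had no array well above background, so these are not measured ratios.

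Ggt1, which starts the breakdown of glutathione at the brush border, was lower in the ANP pool of day 1 and close between groups afterwards. Its relative signal was 59.4 in the ANP pool and 98.8 in the VC pool at day 1 (log2 ratio -0.73), and 109.8 and 118 at day 7. The S3 marker list, of the segment that carries much of this enzyme, had a mean log2 difference of -0.96 in the same day 1 pools, and its part in the result was not tested. At day 14 ANP animals had 140.1, 111 and 125, and VC animals had 109, 151 and 133, which overlap. ANP animals of day 28 had 132, 129.9 and 119.7, against 106.7, 113 and 107.3 in VC animals, without overlap. The log2 ratio was -0.06 ± 0.12 at day 14 (limma adjusted p = 0.889) and 0.22 ± 0.12 at day 28 (adjusted p = 0.284), with intervals of -0.33 to 0.21 and of -0.05 to 0.49. The mean log2 difference of the S3 list at day 28 was 0.38 and its median was 0.14, and its part in the Ggt1 value was not tested.

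Groups without overlap are common in these data, with 18.1% of all genes at day 14 and 32.8% at day 28. At day 28 the ANP animals lay wholly above the VC animals for 4 of the 8 genes (Gclm, Gss, Gsr and Ggt1), where 18.6% of all genes did, and wholly below them for 1 (Gpx1), where 14.2% did. At day 14 they lay wholly above for 1 (Gsr), where 10.3% of all genes did, and wholly below for 0, where 7.8% did. Between the vehicle groups 34.7% of all genes did not overlap (18.7% higher and 15.9% lower at day 28), and limma called 11.2% of all genes there, 7.01% higher and 4.17% lower. Of the 8, limma called 2 higher in VC animals of day 28 than of day 14 (Gpx1 and Gpx3) and 2 lower (Gclm and Gss). Slide and age cannot be told apart in these vehicle calls.

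The genes differed widely in how much they moved over the 16 arrays. The highest array of Slc7a11 was at least 22.3-fold above each array on which its probe was not well above background. For Gpx2 the highest array was 19.2-fold above the lowest. The span was 7.53-fold for Gpx3 and 4.49-fold for Gclm. By the probes used, it was smallest for Gclc (2.04-fold), Gsr (2.38-fold) and Ggt1 (2.54-fold). The other Gclc probe ran more widely, from 11.7 in the ANP pool of day 1 to 47.2 in a VC animal of day 14. The place of Gclc in this order therefore depends on the probe. The ANP pool of day 1 had the lowest group mean of the series for 4 genes, Gclc, Gclm, Gss and Ggt1, and the highest for 2, Slc7a11 and Gpx2. This pool is 1 array, set against means of 3 animals at days 14 and 28. For Gclm, VC replicate 1 of day 28 (0.241) was below the pool (0.262). The share of all genes with their lowest or highest group mean in this pool was not counted.

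Around these genes, 59 further genes of glutathione and thiol metabolism were followed in 5 lists, of which 57 had a named probe and 55 were tested. At day 14 limma called 0 of the 55, with 16 at an unadjusted p below 0.05, where 13.4% of all genes were. At day 28 it called 8 higher and 1 lower, beside 4.47% and 2.63% of all genes, with a median log2 ratio of 0.07. The red cell marker list was also higher in ANP animals of that day, with 3 of its 4 measured genes called, and its part in these calls was not tested.

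Among the peroxidases and thiol oxidoreductases, 4 of 19 rose at day 28 and 0 fell. Srxn1 (sulfiredoxin, which repairs overoxidised peroxiredoxins) was 4.38-fold higher at day 28 (log2 ratio 2.13 ± 0.50, adjusted p = 0.033), and its log2 ratio was 4.15 on the pools of day 1 and 1.91 on those of day 7. Gpx4, the peroxidase of membrane lipids, rose 1.40-fold (adjusted p = 0.016), the peroxiredoxin Prdx6 1.44-fold (adjusted p = 0.048) and thioredoxin Txn1 1.32-fold (adjusted p = 0.025). Txnrd1, the reductase of thioredoxin, had a log2 ratio of 2.00 on the day 1 pools and 0.45 ± 0.18 at day 28 (adjusted p = 0.145).

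Of 6 glutathione carriers 2 rose at day 28. Abcc2, an export pump for glutathione conjugates, was 4.44-fold higher (log2 ratio 2.15 ± 0.51, adjusted p = 0.035), with log2 ratios of 4.17 and 3.65 on the pools of days 1 and 7 and of 2.79 at day 14 (adjusted p = 0.052). Slc25a39, the mitochondrial glutathione importer, rose 1.65-fold (adjusted p = 0.009). Among 8 regulators Atf4 rose 1.73-fold (adjusted p = 0.011), and Maff, a small partner protein of NRF2 at DNA, had a log2 ratio of 2.62 on the day 1 pools and 0.91 ± 0.25 at day 28 (adjusted p = 0.052). Nfe2l2, which encodes NRF2, had log2 ratios of 0.52 on the day 1 pools and -0.10 ± 0.08 at day 28 (adjusted p = 0.462).

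Of 12 genes that supply the amino acids, 4 were at least 2-fold lower in the ANP pool of day 1 and 0 at least 2-fold higher, beside 4.96% and 4.83% of all genes, with log2 ratios of -2.22 for Cdo1 (cysteine dioxygenase), -1.84 for Mat2a (methionine adenosyltransferase), -1.63 for Cth (cystathionine gamma-lyase) and -1.28 for Ahcy (adenosylhomocysteinase). The list's median of -0.77 stands beside -0.04 over all genes of these pools. The S3 marker list had a mean log2 difference of -0.96 there, with 3 of its 8 genes at least 2-fold lower, and its part in these values was not tested. At day 28 the glutamine carrier Slc1a5 rose 1.48-fold (adjusted p = 0.044) and 0 of the 12 fell, while Slc3a2, the partner chain of Slc7a11, had a log2 ratio of -0.34 ± 0.13 (adjusted p = 0.139). Of 10 genes of glutathione breakdown, Oplah (5-oxoprolinase) fell 1.40-fold at day 28 (adjusted p = 0.035) and 0 rose. Of these 10 genes, 2 were at least 2-fold lower in the ANP pool of day 1 and 0 at least 2-fold higher. Their median log2 ratio there was -0.19, with 3 of the 10 above 0 and the lowest value for Anpep (-1.53). One of those above 0 was the glutathione-cleaving enzyme Chac1. It had log2 ratios of 0.72 on the day 1 pools and 0.51 ± 0.17 at day 28 (adjusted p = 0.098).

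**Figure D5:**
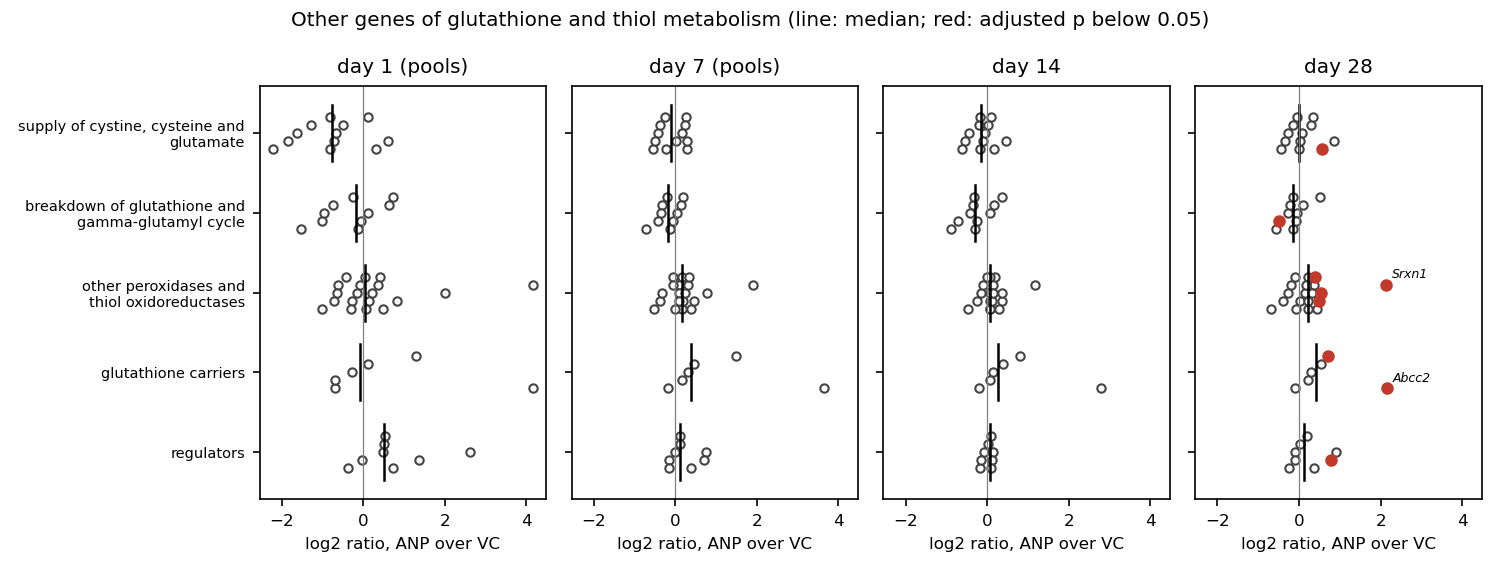
Log2 ratio of ANP over VC (horizontal axis) for the tested genes of 5 lists around the glutathione genes (vertical axis) at each day, with 1 point per gene, a line at the median of the list and red points for an adjusted p below 0.05. Days 1 and 7 are pools without a test. The 9 called genes are all at day 28, led by Abcc2 and Srxn1, and the amino acid supply list has its lowest median on the day 1 pools.

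Over the 16 arrays, the genes outside the 9 whose log2 level was most like each of them were found among 11077 genes well above background on every array, by Pearson's r, as a description of arrays that share slides and groups. Slc7a11 was most like Txnrd1 (r = 0.92), Trmt61a (0.91) and Nrip3 (0.90). Its own probe was well above background on 8 of the 16 arrays and high on a single one, the ANP pool of day 1, which limits these r values. Gclm was most like Ctbp1 (0.91), and Gss was most like B3galt5 (0.96). Gclc was most like Umod (0.97), and Ggt1 was most like Scn8a (0.95). Gsr was most like Dap (0.97), Gpx1 like Krtap10-2 (0.98) and Gpx3 like Tnnc1 (0.99). Gpx2 had the lowest such r, 0.83 with Ptbp1.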

How the data were processed

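Cy3-labelled total RNA of the outer medulla was hybridised to Agilent rat arrays, per the labels' protocols. Spots were read with Feature Extraction 10.7 of Agilent, as the submitters' processing notes give it. The scanner files hold the signal intensity as processed by the authors, linear and with background subtracted, with marks for spots above background, per the file headers. The deposited value table holds a ratio, that signal over the 75th percentile of the array (log2 values of the 2 correlate at r = 0.9999 or more, medians of its columns 0.099 to 0.108), linear and not centred by gene.

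The log2 of the deposited signal intensity minus the log2 75th percentile of its array was used over 61657 probes. RefSeq accessions matched to GRCr8 named 27460 of them, and 34197 stayed unnamed. A gene was read by its brightest named probe, kept where every array of some group of days 14 and 28 had it well above background. The model was fitted with limma 3.58.1 under R 4.3.3 (lmFit, eBayes, 12 arrays, 1 mean per group) and adjusted by Benjamini-Hochberg over 11849 genes at 0.05, with errors as the model's SE and intervals at 95%. Pools have a log2 ratio without a test. A lower bound of a fold sets the bright mean against the dim probe's own signal or, where higher, the lowest signal on that array marked as well above background. Precision is limited by the number of arrays. The 9 genes, the pathway and marker lists and the tests were chosen with earlier results of these data known. Named were the 9 genes, pathway genes past the threshold, other list genes as examples and, for each of the 9, at least its most similar gene. The examples hold some but not all of the largest pool ratios of each list.

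Replicate numbers of the labels were not taken as pairs of animals. Deviations of same-numbered animals correlated at 0.13, 0.07 and 0.14 at day 14 and at -0.07, -0.05 and 0.11 at day 28. Those of different-numbered animals ran from -0.18 to 0.05 at day 14 and from -0.12 to 0.16 at day 28. With 3 animals per group these values cannot settle whether animals were paired. Data were simulated from the measured mean and spread of each gene (11838 genes), with independent noise and no differences between slides or vehicle groups. There, 73% of changes by a log2 ratio of 1 were recovered at each day, and 28% (day 14) and 27% (day 28) of those by 0.5. Of the calls, 9.01% at day 14 and 2.91% at day 28 were false. These shares hold for that simpler setting and need not hold for the measured arrays. For normexp (offset 50) the files gave the median signal, which replaced the planned mean signal. The alternatives were other scalings, filters, probes, blocks, array weights and fits without each animal.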

Additional observations from a re-analysis of the deposited data

Results flagged for a closer look

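Of the 9 genes, 6 had ANP to VC differences of opposite sign at 2 days, in each case with every ANP array of one day on one side of the VC level of its day (the pool, or the mean of 3 animals) and every ANP array of the other day on the opposite side. All but one of these changes of sign involve a pool, which is 1 array per group, and were not tested. Between 2 pools the condition on every array is met by any gene whose sign differs. The share of all genes that meet the condition was not counted, so the 6 of 9 cannot be read as a trait of these genes. On the log2 scale the day 7 effect minus the day 1 effect was 0.63 for Gclc, 0.93 for Gss, 0.81 for Gpx1 and 0.77 for Gpx3. The day 28 effect minus the day 1 effect was 0.71 for Gclc, 1.93 for Gclm, 1.42 for Gss and 0.95 for Ggt1. The day 28 effect minus the day 7 effect was 1.81 for Gclm, -1.06 for Gpx1, -0.91 for Gpx3 and 0.32 for Ggt1. The day 14 effect minus the day 1 effect was 0.40 for Gpx1, and the day 14 effect minus the day 7 effect was -0.94 for Gpx3. For Gpx1 the day 28 effect minus the day 14 effect was -0.65 ± 0.24, and this difference was tested with limma and did not pass the threshold (adjusted p = 0.487).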

How the results depend on the processing

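The day 28 call of Gclm held under all 23 alternatives (adjusted p from 0.00068 to 0.0267). Counts moved as follows. With normexp and quantile normalization 1 of the 9 genes was called at day 14 (Gsr) and 4 at day 28, 119 genes in all were called at day 14, and 1 of the 9 was at least 2-fold apart on the day 7 pools. With slide as a random block, at an estimated correlation of -0.09, the counts were 1 (Gsr) at day 14 and 4 at day 28, and 133 and 1857 over all genes. With array weights, fitted gene by gene because the default method did not converge, 5 of the 9 were called at day 28, and 153 and 2649 genes in all at days 14 and 28. With the 2 groups of a comparison alone 1 of the 9 was called at day 28 and 2 between the vehicle groups, and 22 and 431 genes in all at days 14 and 28. Without a filter 28 genes were called at day 14, with slide as a fixed block 0, and with the replicate block 36. Under the replicate block Gpx1 passed the threshold at day 28 (adjusted p = 0.0311), and the replicate block changed no other call among the 8 genes at days 14 and 28. The mean of a gene's probes left 1 of the 9 at least 2-fold apart on the day 1 pools, since no Slc7a11 probe passes its filter. Leaving out 1 animal, the calls among the 9 ranged from 0 to 1 at day 14, from 1 to 3 at day 28, from 3 to 4 between vehicle groups and from 0 to 1 between days. Over all genes they ranged from 1 to 93 at day 14 and from 211 to 976 at day 28. The lowest day 14 count is without ANP replicate 3 of that day and the highest without ANP replicate 1 of day 28, and the lowest day 28 count is without VC replicate 2 of that day.

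Signs turned only for differences that did not pass the threshold. At day 14 the log2 ratio of Gclc was 0.00011 with median scaling, 0.0016 with array weights and 0.0049 with the fixed slide block, that of Gpx1 -0.018 with normexp, that of Gclm -0.069 with the random slide block and -0.13 with array weights, and with the fixed slide block Gss was at 0.10, Gpx2 at -0.30 and Ggt1 at 0.11. At day 28 Ggt1 was at -0.034 with normexp and Gpx2 at -0.012 with the random slide block. Slc7a11 was at -0.036 at day 14 with probe A_44_P112201 and at -0.18 at day 28 with A_64_P041166, each well above background on 0 of 6 arrays of that day, so these values give no direction. With array weights Gpx2 was at 1.07 at day 28, and with normexp Slc7a11 was at 2.65 on the day 1 pools. Leaving out 1 animal, the day 14 ranges were -0.10 to 0.052 for Gclc, -0.30 to 0.24 for Gclm, -0.045 to 0.26 for Gpx1 and -0.19 to 0.047 for Ggt1, and the day 28 ranges were -0.52 to 0.70 for Gpx2 and -0.094 to 1.24 for Slc7a11. The cause of these changes was not tested. The fixed slide block gives no value for day 28, the vehicle groups or the difference between days. Signal over background limits Slc7a11, well above background on 8 of 16 arrays.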
